A study of Mus musculus with 2 samples.

Results

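Methylated DNA immunoprecipitation (MeDIP) was read on tiling arrays at 10 loci, the germline genes Dazl, Ddx4, Sycp3, Sycp1, Stk31 and Asz1 and the pluripotency genes Pou5f1, Nanog, Dppa3 and Sox2. A locus was a window around a gene, set by mm9 coordinates and not by any measured value, and its members were the genomic probes that start inside it. There were 85 such probes among the 174638 genomic probes of an array, in 11 of 22170 tiled regions. The cells were MEFs, fibroblasts of connective tissue taken from mouse embryos of the strain C57BL/6 at stage E14.5. The thymidine-treated group (1 array) received 100 µM thymidine for 2 days, and the untreated group (1 array) the same medium without it. In both groups magnetic beads had removed cells with the blood and vessel markers CD31, CD41, CD45 and c-Kit beforehand, and both were grown on mitomycin-treated MEF feeders. The source label of the treated sample also names a sort by CD45, a surface protein of blood cells. The labels leave unstated whether feeder DNA was kept out. With 1 array a group there was no replicate and no test was possible, so the values describe these 2 arrays. DNA and not RNA was measured, so the cell type labels could not be checked by expression.

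CpG methylation at gene starts is one of the ways by which body cells keep germline genes silent. The promoters of several germline genes are methylated when the embryo implants and are cleared of methylation in primordial germ cells, where the genes then become active. Pou5f1 and Nanog are active in pluripotent cells and are known to gain promoter methylation in differentiated cells such as fibroblasts, while the CpG-rich Sox2 locus often stays free of it. An antibody against 5-methylcytosine captures fragments that carry methylated CpGs, so a fragment with few CpGs gives little precipitate even when each of them is methylated.

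The sequences before the gene starts show how far these loci differ in CpG content. They are given from RefSeq on build GRCm38.p6, 5′ to 3′ on the strand of the gene, over the 250 bases before the start, with each CpG in capitals. The probes are placed on build mm9, so the sequences were not aligned with the probes. Of the 10 genes, 9 had an entry. Shown are Ddx4 (chr13:112652311-112652560, minus strand) and Stk31 (chr6:49395289-49395538, plus strand), the loci with the highest ratios below once probes with dim input are left out. Dazl (chr17:50293621-50293870, minus strand) is shown because its ratio changed along the locus. Sycp3 (chr10:88459337-88459586, plus strand) is shown for its paired E-boxes and Nanog (chr6:122707239-122707488, plus strand) for its few CpGs.
Ddx4: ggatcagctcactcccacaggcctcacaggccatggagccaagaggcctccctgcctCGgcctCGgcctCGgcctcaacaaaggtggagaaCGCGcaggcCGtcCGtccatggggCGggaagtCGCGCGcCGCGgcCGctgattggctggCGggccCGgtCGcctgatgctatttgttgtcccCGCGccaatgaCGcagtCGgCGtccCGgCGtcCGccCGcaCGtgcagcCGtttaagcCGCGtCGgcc
Stk31: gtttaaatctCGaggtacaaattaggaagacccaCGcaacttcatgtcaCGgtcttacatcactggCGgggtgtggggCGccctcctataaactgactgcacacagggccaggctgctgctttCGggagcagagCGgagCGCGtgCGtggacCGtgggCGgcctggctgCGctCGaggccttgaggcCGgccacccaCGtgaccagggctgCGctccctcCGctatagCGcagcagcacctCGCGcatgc
Dazl: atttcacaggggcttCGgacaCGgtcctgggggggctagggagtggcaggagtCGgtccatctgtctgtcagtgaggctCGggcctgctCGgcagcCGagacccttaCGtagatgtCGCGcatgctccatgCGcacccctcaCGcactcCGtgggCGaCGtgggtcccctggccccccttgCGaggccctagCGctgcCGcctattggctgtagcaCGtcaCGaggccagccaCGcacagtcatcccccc
Sycp3: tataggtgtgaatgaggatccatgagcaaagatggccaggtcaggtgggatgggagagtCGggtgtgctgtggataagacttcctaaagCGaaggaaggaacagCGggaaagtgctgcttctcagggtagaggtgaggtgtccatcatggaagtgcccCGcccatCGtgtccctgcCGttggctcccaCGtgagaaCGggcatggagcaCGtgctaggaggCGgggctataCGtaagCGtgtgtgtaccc
Nanog: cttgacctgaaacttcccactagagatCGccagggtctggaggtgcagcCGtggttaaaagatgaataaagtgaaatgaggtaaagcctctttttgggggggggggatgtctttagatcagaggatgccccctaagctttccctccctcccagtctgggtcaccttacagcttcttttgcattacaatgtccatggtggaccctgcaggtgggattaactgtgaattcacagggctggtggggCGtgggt

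The Ddx4 sequence held 31 CpGs and that of Nanog 3, against a median of 6.0 over 32851 RefSeq gene starts. Sox2 had 27 CpGs, Stk31 21 and 26 at its 2 listed starts, Dazl 20, Sycp1 17, Asz1 15 and Sycp3 12. Pou5f1 had 8 and 6 at its 2 starts, and Nanog 2 at its second start. The 6 germline genes thus all had at least 12, and among the 3 pluripotency genes with an entry only Sox2 did. The E-box CACGTG, which reads the same on both strands, is a site bound by MAX and MGA, proteins of a Polycomb complex known to repress germline genes. It occurred before 4 of the 6 germline genes and before 0 of the 3 pluripotency genes, and 6.02% of all listed starts hold it. Counted from the gene start, Sycp3 had it at positions -64 and -43, Ddx4 at -29, Stk31 at -55 and Sycp1 at -94. The letters GCGGGAA, searched on both strands as a form of the E2F site, occurred at position -136 of Ddx4 and -147 of Sycp3, against 3.82% of all listed starts. Both CACGTG and GCGGGAA hold a CpG, and the shares over all listed starts were not matched for CpG content. These matches describe letters in a window and do not show binding.

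For each probe the log2 ratio of precipitate (Cy5) to input (Cy3) was centred on the median of its array, so 0 is the level of the typical probe. Upstream and downstream below give the order of a locus's probes along transcription. The probes were not placed relative to gene starts. Of the 85 probes 71 had an input signal well above background on both arrays and were kept, and 60 of these also had a precipitate signal well above background on both. The 14 probes left out included 4 of 8 at Ddx4, 3 of 8 at Asz1, 2 of 8 at Stk31 and 2 of 6 at Dppa3. Over the whole array 81.6% of probes were kept, and the input was well above background at 81.7% of probes on the thymidine and 88.4% on the untreated array. Spots of the same control probe differed by a median SD of 0.11 on the thymidine and 0.09 on the untreated array, and by 0.14 in the difference between arrays.

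**Figure D1:**
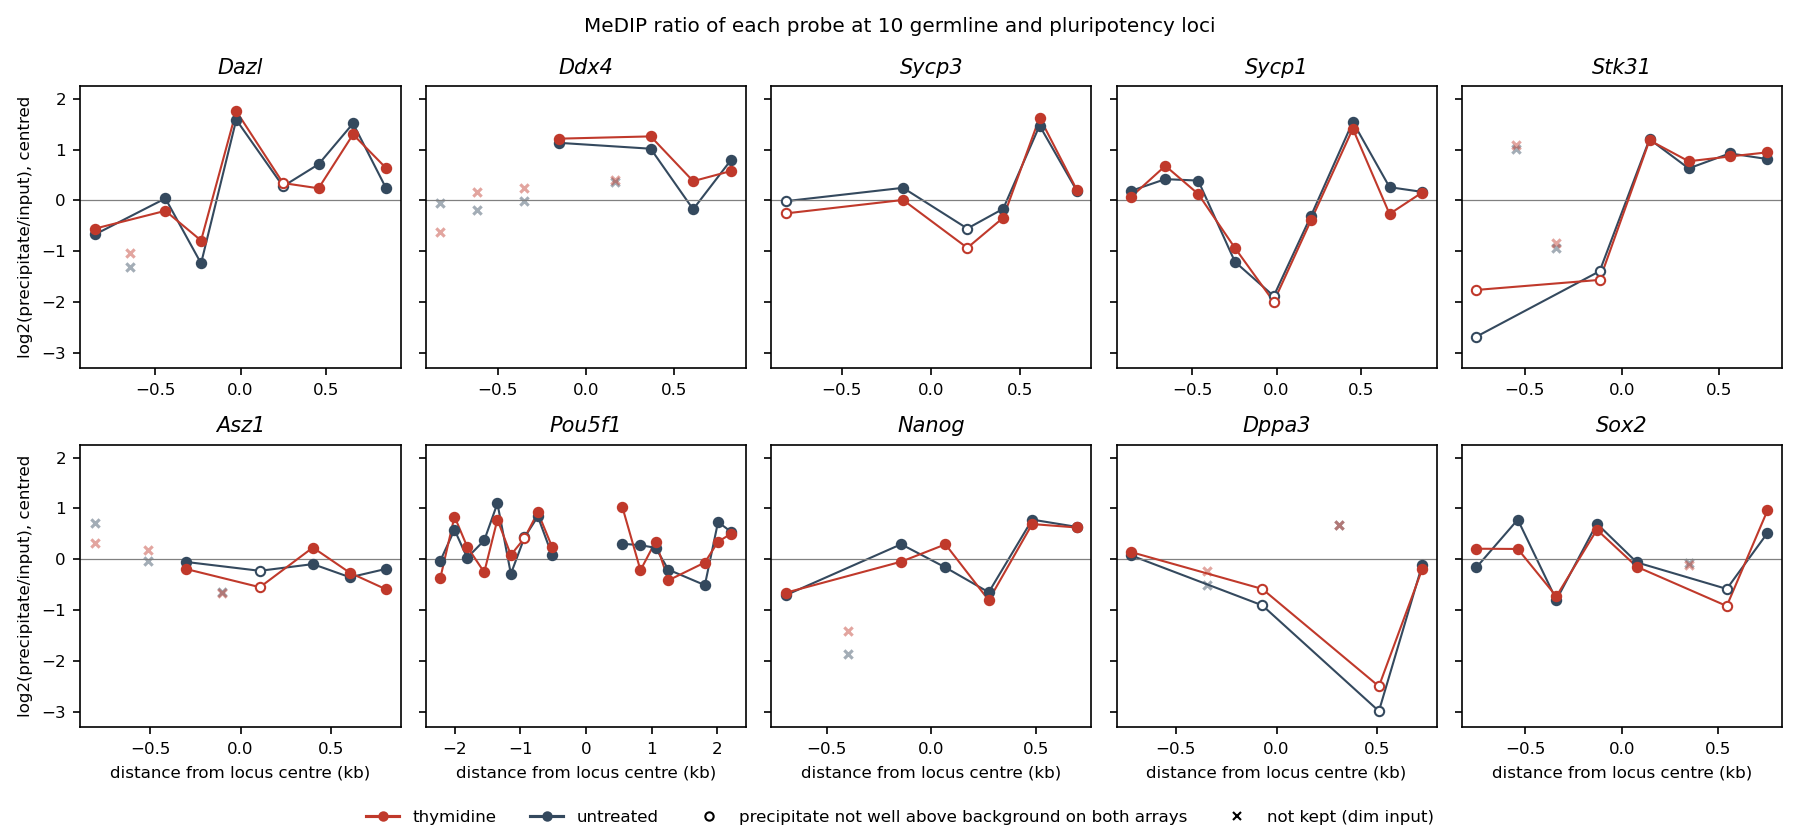
Log2 ratio of precipitate to input (y axis, centred on each array's median) against the distance in kb from the centre of the probes at each locus (x axis), in the direction of transcription except at Dppa3, which runs by coordinate. Lines join kept probes of the thymidine array (red) and the untreated array (dark blue), open circles lack a precipitate signal well above background on both arrays, and crosses are probes left out for dim input. Over kept probes the arrays correlate at 0.84 or more at every locus except Pou5f1 (0.65) and Asz1 (0.44). At Dazl the ratio is high on the downstream side and low on the upstream side.

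Ddx4, an RNA helicase of germ granules and the mouse relative of fly vasa, had with Stk31 the highest ratios of the 10 loci over kept probes. From the processed signals Ddx4 was the higher of this pair. Stk31 was the higher on both arrays with loess, with no filter on dim probes and in the authors' deposited table. With no filter Ddx4 also left the top pair in untreated cells. At 0.25 it was then below Pou5f1 (0.37), Dazl (0.32) and Sycp1 (0.27) as well as Stk31. The 4 kept probes of Ddx4, within mm9 chr13:113442019-113443722, ran between 0.38 and 1.26 in thymidine-treated cells and between -0.17 and 1.13 in untreated cells. The median was 0.90 with thymidine and 0.91 without. Among the 21518 tiled regions with at least 3 kept probes, that median was above 99.4% of region medians on the thymidine and 99.6% on the untreated array. Set only against regions that also kept 4 probes, it was above 99.1% and 99.3%. The 3 probes farthest upstream had dim input, and with all 8 probes of the locus the median was 0.44 with thymidine and 0.25 without, above 91.0% and 75.7% of regions. The highest probe in treated cells, 113442477 to 113442521, read 1.26 with thymidine and 1.02 without. The highest in untreated cells, 113443000 to 113443044, read 1.21 with thymidine and 1.13 without. Its lowest, 113442236 to 113442280, read 0.38 and -0.17 and also had the largest difference of the locus, 0.55. The probe 113442019 to 113442064 had the lowest difference, -0.22. The median difference over the 4 probes, thymidine minus untreated, was 0.16 (SD over probes 0.32). It is positive although the treated median is not the higher, because it is taken probe by probe.

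Stk31 is a testis protein with a Tudor domain and a kinase-like domain. Its 6 kept probes (mm9 chr6:49344407-49345959) had a median of 0.82 with thymidine and 0.72 without, above 99.1% and 98.3% of regions. The 4 probes on the downstream side lay between 0.77 and 1.18 in treated and between 0.63 and 1.20 in untreated cells, all measured in both channels. The other 2 kept probes, upstream, read -1.76 and -1.56 with thymidine and -2.68 and -1.39 without, but their precipitate was not well above background on either array, so the size of these ratios is uncertain. Single differences are not given for them, though they enter the locus median and the counts. At the other 4 probes the differences ran from -0.06, at 49345721 to 49345765, to 0.14, at 49345509 to 49345553. The median difference over all 6, these 2 included, was 0.06 (SD 0.39), with 3 probes higher and 3 lower. Another 2 upstream probes were left out for dim input. The one at 49344614 to 49344669, with precipitate well above background on both arrays, read 1.09 with thymidine and 1.01 without. The one at 49344817 to 49344876 read -0.84 with thymidine and -0.94 without, with dim precipitate.

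Dazl, an RNA-binding protein needed for germ cell development, had low ratios at its upstream probes and higher ones at its downstream probes. Its 8 kept probes (mm9 chr17:50432461-50434209) had a median of 0.29 with thymidine and 0.26 without. On the upstream side 3 probes read -0.55, -0.20 and -0.79 in treated and -0.67, 0.04 and -1.24 in untreated cells. From 50433383 on, in the direction of transcription, 5 probes read 1.76, 0.34, 0.24, 1.30 and 0.64 in treated and 1.59, 0.28, 0.71, 1.51 and 0.24 in untreated cells. The probe that read 0.34 and 0.28 had a precipitate well above background on the thymidine array only. No upstream probe reached the level of any downstream probe on either array. Between the first and the last 4 probes the median rose by 0.87 with thymidine and by 0.81 without. Such a step of at least 0.8 on both arrays, in either direction, was present in 2 of 10 stretches at the loci with a known strand, against 19.2% of 20532 tiled regions with 4 or more kept probes, so a step of this size was near the background of the array. The other stretch was Stk31, at 2.43 with thymidine and 2.20 without, and its low side rests on the 2 probes with dim precipitate. Over the 4 Stk31 probes measured in both channels, all downstream, the step was absent, at -0.07 with thymidine and -0.05 without. At Nanog the step was 0.67 with thymidine and 0.80 without. At Sycp3 it was 0.47 and 0.21 over all kept probes, and 1.09 and 0.79 over the probes measured in both channels. Ddx4 went the other way, by -0.757 with thymidine and -0.760 without, with 2 probes on each side. Sycp1 (-0.154 and -0.075) and Asz1 (-0.060 and -0.133) also fell on both arrays. Of the 10 stretches 5 rose on both arrays, so a rise along transcription was not shared by the loci. This comparison of ends was chosen after the values were seen. The probe 50433543 to 50433589 had the lowest ratio in untreated cells and in treated cells, and also the largest difference, 0.45. The lowest difference, -0.47, was at 50432856 to 50432900. The median difference was 0.09 (SD over 8 probes 0.32), with 5 probes higher and 3 lower.

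From the processed signals the synaptonemal complex genes had medians near those of the array as a whole. In the authors' deposited table their untreated medians were 0.31 at Sycp3 and 0.23 at Sycp1, above 87.1% and 79.9% of regions. With thymidine they were 0.02 and -0.02 there. Sycp1 encodes the transverse filaments of the complex that joins paired chromosomes in meiosis. Its 9 probes (mm9 chr3:102739538-102741309) had a median of 0.07 with thymidine and 0.19 without. They held a deep dip, at 102740417 to 102740463, of -1.99 in treated and -1.88 in untreated cells, and at 102739949 to 102739993 a peak of 1.41 and 1.55. The dip's precipitate was well above background on the untreated array only. Of the 9 probes 7 were lower with thymidine and 2 higher, with a median difference of -0.11 (SD 0.25). The differences ran from -0.53, at 102739731 to 102739775, to 0.27, at 102740646 to 102740694. Sycp3 encodes a protein of the lateral elements of the same complex. Its 6 probes (mm9 chr10:87921034-87922710) had a median of -0.12 with thymidine and 0.09 without, a peak of 1.63 and 1.47 at 87922458 to 87922502, and a lowest probe of -0.93 and -0.55 at 87922045 to 87922104, whose precipitate was dim on the thymidine array. The median difference of Sycp3 was -0.21 (SD 0.20), above 5.3% of region medians. It was the lowest of the 10 loci from the processed signals, but under other settings Asz1, Sycp1 or Sox2 was lower. The 4 upstream probes differed by -0.38 to -0.18 and the 2 downstream probes by 0.16 and 0.02. Each of these differences was smaller than the scanner software's own error for it. The upstream probe 87921034 to 87921082 also had a precipitate dim on both arrays. Over the 4 probes measured in both channels the median difference was -0.08. The input of Sycp3 differed by 0.12 between the arrays and its precipitate by -0.02, as medians of the centred channels, and the part of either in the ratio difference was not tested.

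Asz1, an ankyrin repeat protein of the mitochondria-associated germ granule that makes piRNAs, was the germline locus with the lowest ratio from the processed signals, while with loess Sycp1 lay lower on the thymidine array. Its 5 kept probes (mm9 chr6:18058602-18060266) had a median of -0.27 with thymidine and -0.19 without and none reached 1. They ran between -0.59 and 0.23 in treated and between -0.35 and -0.05 in untreated cells. The differences ran from -0.40 at 18058602 to 18058654 to 0.33 at 18059010 to 18059054, with a median of -0.14 (SD 0.30) that was -0.03 over the 4 probes measured in both channels.

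Pou5f1, which encodes the transcription factor Oct4, was tiled in 2 stretches of 9 and 7 probes within mm9 chr17:35641689-35646168, a segment that belongs to the major histocompatibility complex. The stretches began 2770 bp apart, and the 2 gene starts that RefSeq lists on GRCm38.p6 are 2775 bp apart. All 16 probes were kept. The first stretch had a median of 0.25 with thymidine and 0.37 without, the second 0.35 and 0.28. Over both the median was 0.30 in treated and 0.29 in untreated cells, with probes between -0.41 and 1.03 and between -0.51 and 1.10. The probe 35644459 to 35644509 was highest in treated cells, at 1.03 against 0.30 without thymidine, and its difference of 0.73 was the largest of the locus. At 35642354 to 35642406 the ratio was -0.26 with thymidine and 0.37 without, a difference of -0.63. These were the only 2 of the 71 kept probes whose difference exceeded 2 of the scanner software's own errors, 1 higher and 1 lower. Over the array 1.83% of probes were higher and 1.12% lower by that rule. Pou5f1 as a whole had 8 probes higher and 8 lower, with a median difference of 0.04 (SD 0.37).

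Nanog, a homeobox factor of the pluripotent epiblast, had 6 kept probes (mm9 chr6:122656471-122657915) with a median of 0.12 with thymidine and 0.07 without. Its highest ratio, 0.69 in treated and 0.78 in untreated cells, was at 122657651 to 122657705. Its lowest ratio was -0.81 with thymidine, at 122657448 to 122657492, and -0.71 without, at 122656471 to 122656528. The differences ran from -0.34 to 0.45, at the neighbouring probes 122657029 to 122657074 and 122657241 to 122657285, with a median of -0.05 (SD 0.27). Sox2, a transcription factor that works with Oct4, had 7 kept probes (mm9 chr3:34547630-34549181) with a median of 0.20 with thymidine and -0.06 without. Taken probe by probe, its median difference was -0.09 (SD 0.36), of the opposite sign. The probe 34549137 to 34549181 read 0.96 in treated and 0.52 in untreated cells and had the largest difference, 0.44. At 34547844 to 34547888 the ratio was 0.20 with thymidine and 0.78 without, the lowest difference of the locus at -0.58. The lowest ratio in treated cells, -0.92 against -0.58 without thymidine, was at 34548920 to 34548977, where the precipitate was dim on both arrays. The lowest in untreated cells, at 34548043 to 34548089, came with -0.73 in treated and -0.80 in untreated cells. Over the 6 probes measured in both channels the median was 0.20 with thymidine and 0.23 without, and the median difference -0.01. Dppa3, an egg protein that protects maternal DNA from loss of methylation after fertilisation, had the lowest ratio of the 10 loci from the processed signals. Asz1 was lower on both arrays where both channels had to be well above background, and on the thymidine array with no filter on dim probes. Its 4 kept probes (mm9 chr6:122575242-122576734) had a median of -0.39 with thymidine and -0.51 without. Only 2 of them were measured in both channels, reading 0.14 and -0.20 in treated and 0.07 and -0.12 in untreated cells. The probe 122576472 to 122576524, at -2.50 and -2.99, had a precipitate not well above background on either array. The median difference of Dppa3, 0.19 (SD 0.25), was the highest of the 10 loci from the processed signals and was -0.01 over those 2 probes.

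**Figure D2:**
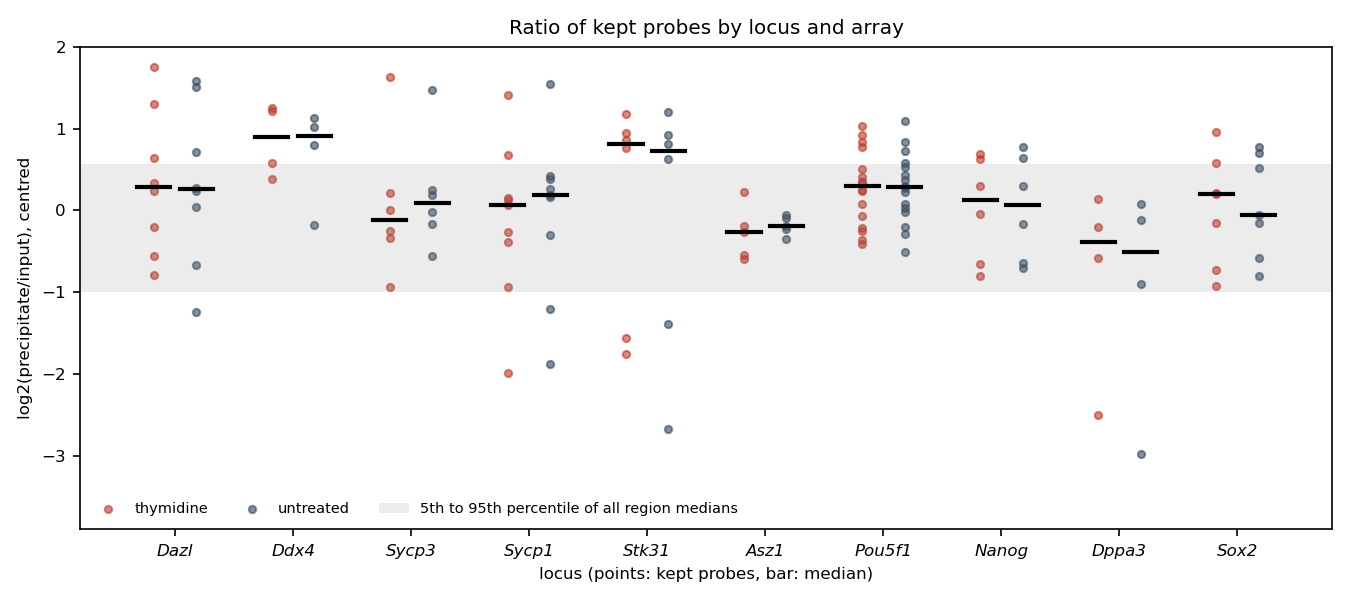
Log2 ratio of precipitate to input of every kept probe (y axis, centred on each array's median) by locus (x axis), with the thymidine array (red) left of the untreated array (dark blue) and a bar at the median. The grey band spans the 5th to 95th percentile of region medians, taking the outer value of the 2 arrays (-0.99 to 0.57), and the medians of Ddx4 and Stk31 lie above it.

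From the processed signals, ordered by the median in thymidine-treated cells, the loci ran Ddx4, Stk31, Pou5f1, Dazl, Sox2, Nanog, Sycp1, Sycp3, Asz1 and Dppa3. In untreated cells the order was the same for the first 4 and the last 2, with Sycp1, Sycp3, Nanog and Sox2 between them. Each neighbouring pair in these orders differed by less than the larger of the 2 loci's SDs over probes, which ranged from 0.33 to 1.35 in treated and from 0.12 to 1.58 in untreated cells. Over the 71 kept probes the median ratio was 0.16 with thymidine and 0.19 without. A ratio of at least 1 was seen at 8 probes on each array, against 7.6% of all probes with thymidine and 7.17% without. Of these 8, 7 lay at germline loci and 1 at Pou5f1 on each array. A ratio of -1 or less was seen at 4 probes with thymidine and 6 without, against 11.3% and 15.0% of all probes. A MeDIP ratio depends on CpG number as well as on methylation, and these were not separated here.

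**Figure D3:**
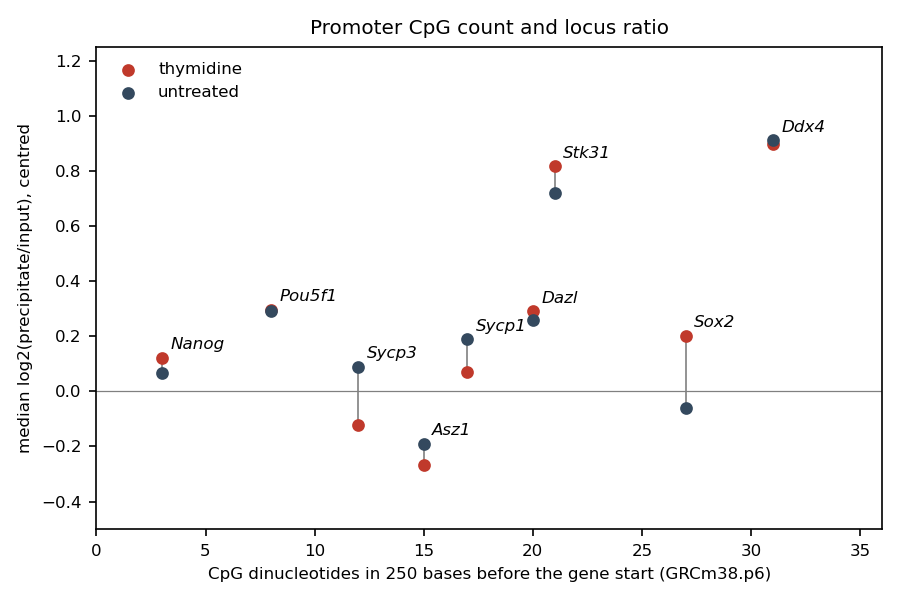
Median log2 ratio of kept probes at each locus (y axis) against the number of CpG dinucleotides in the 250 bases before the first listed gene start on GRCm38.p6 (x axis), for the thymidine array (red) and the untreated array (dark blue), joined per locus. Ddx4, with 31 CpGs, had ratios of 0.90 and 0.91, while Sox2, with 27, had 0.20 and -0.06.

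CpG number and ratio did not run in parallel at every locus. Sox2 and Ddx4 had close CpG counts, 27 and 31, and their median ratios were 0.20 and 0.90 with thymidine and -0.06 and 0.91 without. Asz1, with 15 CpGs, lay below Nanog, with 3. Over 9 loci and with sequence and probes from different builds, no more is read from these pairs.

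No locus passed the rule used for tiled regions, a median of 0.5 or more, or -0.5 or less, with no fewer than 80% of probes on that side of 0. By that rule 0.706% of all regions were higher and 0.0558% lower, so 0 of 10 loci is near the background and shows nothing particular to them. None passed with the size lowered to 0.3, where 5.05% of regions were higher and 0.692% lower. The median differences lay between -0.21 at Sycp3 and 0.19 at Dppa3, with 5 loci above and 5 below 0. The middle 90% of all region medians spanned -0.21 to 0.35, and the median over all kept probes was 0.07.

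**Figure D4:**
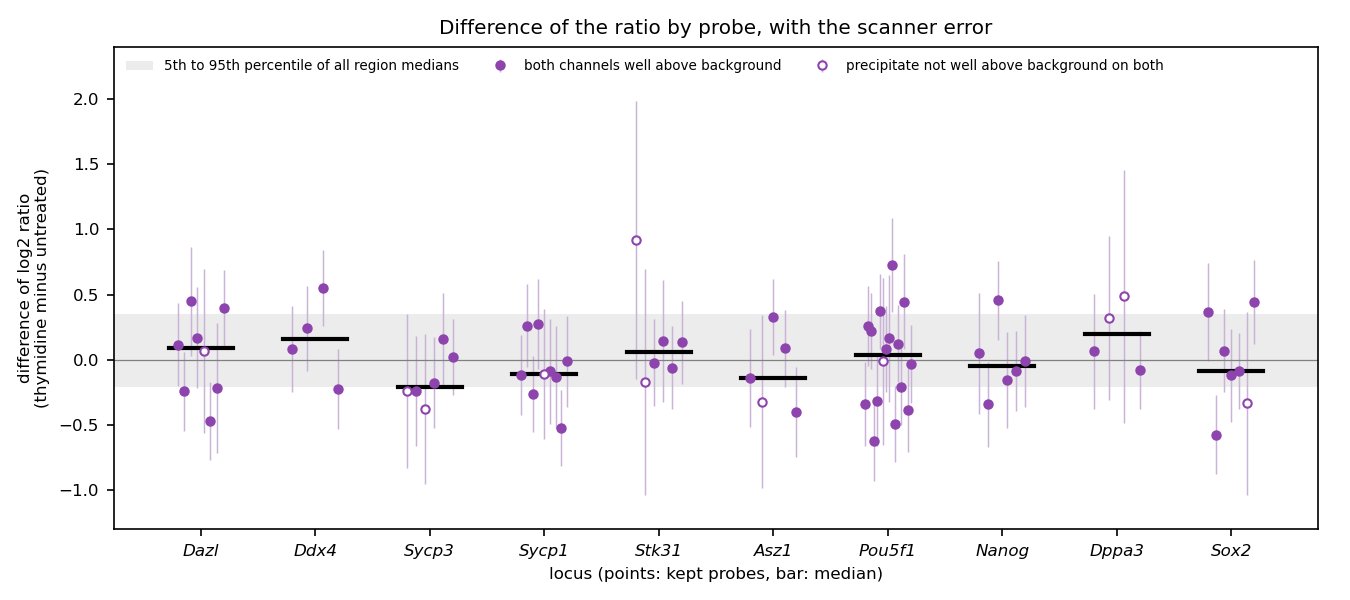
Difference of the log2 ratio, thymidine minus untreated (y axis), of every kept probe by locus (x axis), with bars of 1 scanner error to each side and a thick line at the median. The grey band spans the 5th to 95th percentile of all region medians (-0.21 to 0.35), and the 10 locus medians, from -0.21 to 0.19, lie inside it.

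Of the 71 kept probes 33 were higher with thymidine and 38 lower, and over the array 57.5% were higher. A difference of at least 0.5 was seen at 3 probes, against 11.0% of all probes, and of -0.5 or less at 3, against 4.43%. Of the 3 higher probes 1 lay at Ddx4, 1 at Pou5f1 and 1 at Stk31, the last with a precipitate dim on both arrays. Of the 3 lower probes 1 each lay at Sycp1, Pou5f1 and Sox2. The probes of the 6 germline loci had a median difference of -0.04 (SD 0.30, 38 probes) and those of the 4 pluripotency loci -0.01 (SD 0.33, 33 probes). The 2 arrays correlated at 0.93 over the 71 probes, as they did over all probes, and this correlation is across probes that share the same 2 samples. The difference of the ratio correlated at -0.67 with the difference of the input, which is its denominator, against -0.79 over all probes. The median of the centred input difference at the 71 probes was 0.08 and that of the precipitate 0.02.

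The authors' deposited table of log ratios gave more probes below 0. Of the 71 kept probes 49 were lower with thymidine in that table, 69.0%, against 58.2% of all kept probes. At the synaptonemal complex genes every kept probe was lower in it, 9 of 9 at Sycp1 and 6 of 6 at Sycp3, with median differences of -0.19 and -0.15. In the same table all probes were lower in 7.25% of tiled regions with at least 6 kept probes. From the processed signals 7 of 9 and 4 of 6 were lower, and 0.369% of such regions had all probes lower. Sox2 had 6 of 7 probes lower in the authors' deposited table, with a median difference of -0.26. These loci were picked out of that table after their values were seen.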

How the data were processed

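Agilent two-colour tiling arrays of anti-5-methylcytosine precipitate (Cy5) and input DNA (Cy3) were used, sheared to 200 to 1000 bp per the labels. Per the file headers, the deposited intensity values come from Agilent Feature Extraction 11.0.1.1 on mm9 positions. They hold processed signals, corrected for background and for dye with linear factors, and uncorrected medians of spots and local background. The deposited errors of the log10 ratio were estimated by the scanner software, per the file headers. The authors' deposited table holds log ratios taken as log2 values. Its log base, centring and smoothing stay unknown. Against the log2 ratio of raw medians its direction was positive, with slopes of 0.77 (thymidine) and 0.68 (untreated), and its column medians were -0.02 and -0.01.

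From these, log2(Cy5/Cy3) of processed signals was centred on the median of kept probes, with no loess or quantile step. Kept probes were no controls, had no outlier flag and had input well above background on both arrays (142569 of 174638). A region was a run of probes starting less than 1000 bp apart. The members, gene lists and tests were chosen with earlier results of these data known. All 10 loci are named, with their probes of extreme ratio or difference. Other genes of these pathways and marker lists were not analysed here, since the files name no genes. Dye orientation was the same on both arrays. Slide, scan, the CD45 sort and the treated sample's input, which the labels describe in 2 ways, cannot be told apart from the group. The number of arrays limits the precision. Alternatives were run with limma 3.58.1 in R 4.3.3 (normexp with an offset of 50 on median signals in place of the planned mean signals, loess with a span of 0.3, and quantile), and with Python 3.11.15. The region rule was tested on simulated data.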

Additional observations from a re-analysis of the deposited data

How the results depend on the processing

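Over 10 alternative settings none brought a locus to a median difference of 0.5. No locus passed the size and sign rule, which was run in all of them but the means over probes. The settings were normexp, raw medians, loess, quantile, removal of the trend with ratio level, no filter on dim probes, both channels well above background, the precipitate alone, the authors' deposited table and means over probes. The step along a locus, and its value over both channels, were added after seeing the data. The sign changed in 14 of the 100 locus values. It held under all 10 settings at Ddx4 (0.11 to 0.17), Sycp3 (-0.23 to -0.01) and Sox2 (-0.26 to -0.003). The median difference over the 10 loci was -0.01 and ran from -0.08 in the authors' deposited table to 0.06 with normexp, and it was also above 0 with raw medians (0.05) and the precipitate alone (0.05). The median ratio over the loci in thymidine-treated cells was 0.16, and 0.0008 in the authors' deposited table. In untreated cells it was 0.14, and 0.24 in that table, with a range of 0.05 (precipitate alone) to 0.24 over the alternatives. The cause was not tested. The percentile of the Stk31 ratio stayed between 98.7 and 99.6 with thymidine and between 95.6 and 99.2 without over 7 settings of the ratio. Ranked by the precipitate alone it was 53.9 and 48.4, a scale on which levels of different probes are not corrected by input. That of Ddx4 fell to 91.0 and 75.7 with no filter on dim probes, which adds 4 dim probes. Stk31 was above Ddx4 on both arrays with loess (0.77 with thymidine and 0.68 without, against 0.57 with thymidine and 0.65 without), with no filter (0.87 and 0.80, against 0.44 and 0.25 in the same 2 arrays) and in the authors' deposited table (0.64 and 0.68 against 0.57 and 0.51). Where both channels had to be above background, Asz1 (-0.37 and -0.29) was below Dppa3 (-0.17 and -0.17). No paired analysis was possible because each group has 1 array, and no array could be left out. Dim precipitate limits the ratios at Stk31 and Dppa3, where 2 kept probes each were dim on both arrays. It also limits those at Sycp3, Asz1 and Sox2, with 1 such probe each.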
